A study of Drosophila melanogaster with 3 samples.

Results

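The genes shn (schnurri, FBgn0003396) and brk (brinker, FBgn0024250) were examined for the positions of a Snoo-eGFP fusion protein. ChIP-seq had been made on whole pupae of Drosophila melanogaster. Every summit in the gene body or within 20 kb of it was taken from the deposited peak lists on the dm6 build, with genes placed by the Ensembl BDGP6 annotation. Both genes were chosen by name, with earlier results of these data known. The lists held 37 such summits among the 6633 peaks that passed the authors' threshold on the irreproducible discovery rate between replicates (the IDR list), 20 of them at shn and 17 at brk. The annotation placed shn at 2R 11159086 to 11217394 and brk at X 7307939 to 7311132, both on the plus strand, with lengths of 58.3 and 3.19 kb. The windows searched were therefore 98.3 and 43.2 kb long.

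The study had 1 group of 3 biological replicates, numbered 3, 5 and 6, all from the strain snoo-MiMIC. In this line an eGFP exon sits in an intron of Snoo, so that the gene yields a GFP fusion, and chromatin was precipitated with an antibody to GFP. Males and females were pooled, and the age of the pupae is unknown per the labels. No control library was among the samples, and all values below describe the authors' peaks without a test between conditions. In whole animals, binding in few cells and weak binding in many cells cannot be told apart.

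Signalling by the BMP ligand Dpp leads to phosphorylation of the Smad protein Mad, which enters the nucleus with Medea. Schnurri is a large zinc finger protein that joins Mad and Medea on silencer elements, short sequences with a GC-rich part bound by Mad and a GTCTG part bound by Medea, and this complex shuts off brk. Brinker is itself a DNA-binding repressor of Dpp target genes, so that Dpp turns many targets on by removing it. Snoo belongs to the Ski and Sno proteins, nuclear coregulators that contact Smads.

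The silencer element was searched around brk as GACGNC or GGCGNC, then any 5 bases, then GTCTG, on both strands. The 10 matches are shown because upstream sequences of this form are the known targets of the Schnurri complex at brk. They come from the RefSeq genome of Release 6 (dm6), each is written 5′ to 3′ on its own strand, and capitals mark the Mad and Medea parts. The matches are numbered along X, with the first 9 upstream of the start of brk and the last in the body of Atg5.
element 1: GGCGCCcgtgcGTCTG
element 2: GGCGACagactGTCTG
element 3: GACGACagagtGTCTG
element 4: GGCGACattctGTCTG
element 5: GACGTCgctctGTCTG
element 6: GGCGCCtctatGTCTG
element 7: GGCGTCcgctcGTCTG
element 8: GGCGGCcaaatGTCTG
element 9: GACGACggactGTCTG
element 10: GGCGCCaaacaGTCTG

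The windows of 201 bases centred on 5 summits of brk are shown next, all on the plus strand of X. Summits 7 and 8 hold silencer element matches, summits 11 and 13 are the strongest upstream of brk, and summit 17 is the strongest of the whole window. Capitals mark whole silencer elements with their gap, matches of GCCGNC and matches of GTCTG, each on either strand, so that GTCTG on the minus strand reads CAGAC. Every silencer element contains GTCTG, and in summit 7 the first element overlaps a GCCGNC match by its last base.
summit 7: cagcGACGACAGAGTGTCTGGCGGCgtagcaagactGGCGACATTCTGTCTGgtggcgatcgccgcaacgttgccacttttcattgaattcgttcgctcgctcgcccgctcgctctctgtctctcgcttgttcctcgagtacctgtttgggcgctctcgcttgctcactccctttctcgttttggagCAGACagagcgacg
summit 8: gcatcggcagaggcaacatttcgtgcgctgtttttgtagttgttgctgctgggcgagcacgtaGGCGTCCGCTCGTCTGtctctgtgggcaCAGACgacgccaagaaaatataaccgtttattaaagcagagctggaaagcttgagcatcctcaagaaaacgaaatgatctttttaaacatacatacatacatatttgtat
summit 11: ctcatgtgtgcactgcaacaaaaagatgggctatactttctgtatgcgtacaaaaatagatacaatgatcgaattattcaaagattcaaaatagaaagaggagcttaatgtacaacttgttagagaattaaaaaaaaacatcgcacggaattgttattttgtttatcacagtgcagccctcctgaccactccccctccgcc
summit 13: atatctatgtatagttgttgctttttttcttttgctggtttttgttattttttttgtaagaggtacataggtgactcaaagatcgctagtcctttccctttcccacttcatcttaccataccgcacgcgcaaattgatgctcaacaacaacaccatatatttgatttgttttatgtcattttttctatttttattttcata
summit 17: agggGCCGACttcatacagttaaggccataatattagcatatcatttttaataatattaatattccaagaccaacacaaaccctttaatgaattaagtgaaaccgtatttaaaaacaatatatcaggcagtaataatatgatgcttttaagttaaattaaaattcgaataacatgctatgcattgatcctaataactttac

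At these 5 windows, chrX:7299717-7299917 (summit 7) held 2 silencer elements, and chrX:7301237-7301437 (summit 8) held 1. The CAGAC near the right end of the summit 7 window is the Medea part of element 5. That element ends at 7299919, so the window edge cuts it and it was not counted. The windows chrX:7302423-7302623 (summit 11) and chrX:7305880-7306080 (summit 13) held no match of any of the 3 sequences. The window chrX:7324922-7325122 (summit 17) held 1 GCCGNC match at its left edge.

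The gene shn was occupied at many sites inside its introns. Of its 20 IDR summits, 18 lay in the gene body, all of them in introns, and the remaining 2 lay downstream. In shn-RE, the longest of 6 transcripts, 9 summits fell in intron 1 and 9 in intron 2. Their signal, which is the authors' value per peak made against a control alignment, ran from 144 to 1053 with a median of 313. The median of all IDR peaks was 222, and 14 of the 20 shn summits lay above it, 4 of them in the strongest 10% of the list.

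The summits of shn were not spread evenly over the gene. From the first annotated start to 1 kb before the second start, a stretch of 13.7 kb held no IDR summit and no pooled candidate. The 20 kb upstream of the gene likewise held none of either. Candidates are the 30000 regions per list from which the IDR peaks were drawn, background included, and in the replicate lists these stretches held 1 candidate of replicate 5 and 2 of replicate 6. The highest of these ranked 16757. The next 34.6 kb held all 18 summits of the body, while the whole body held 3.09 per 10 kb. Over all 6 arms the IDR list held 0.495 per 10 kb. After the last of them, the final 9.99 kb of the gene, with its largest exons, held no IDR summit and 1 pooled candidate of signal 30.0. The empty first stretch of shn is overlapped on the minus strand by CG13229 (2R 11139304 to 11172206), which hosted no IDR summit.

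**Figure D1:**
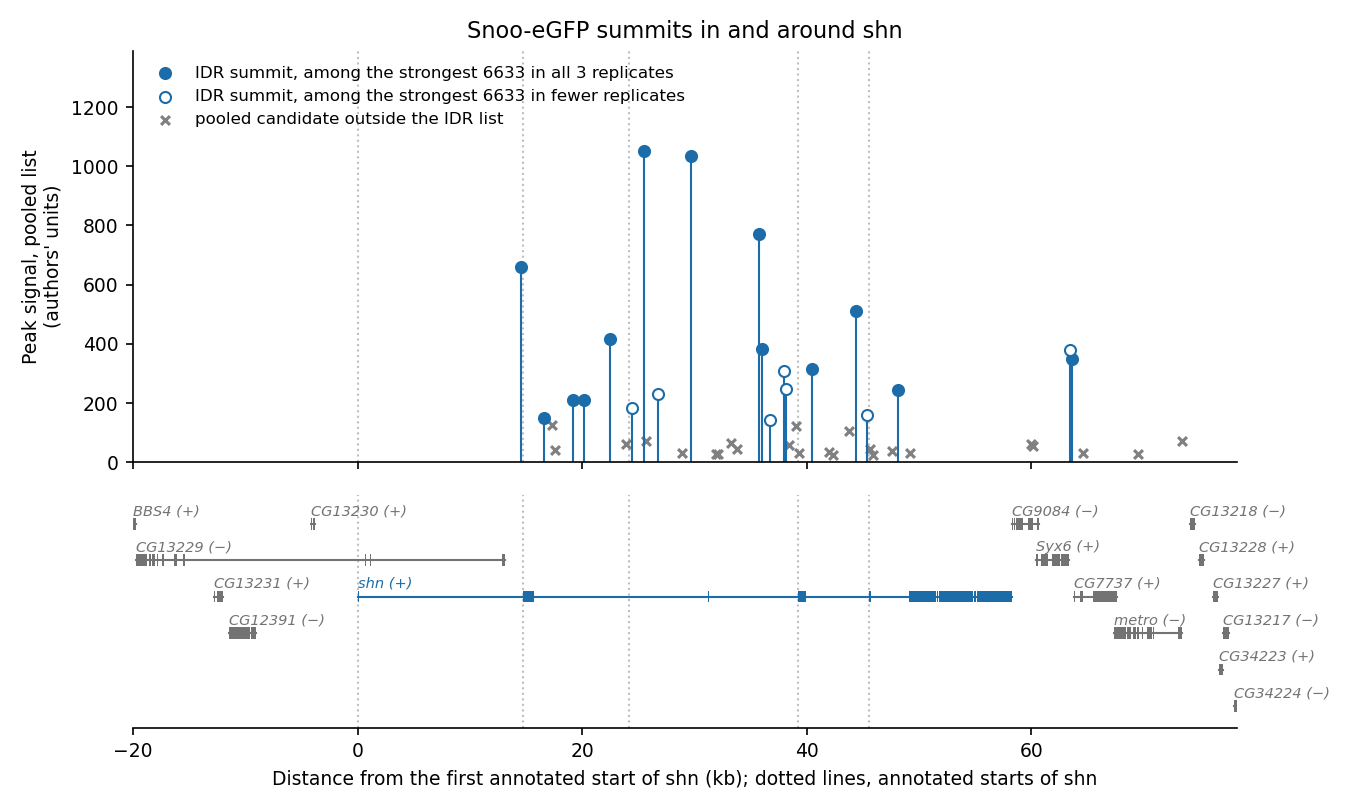
Peak signal in the pooled list (authors' units) against distance from the first start of shn in kb, with gene models below, where boxes are exons. Filled points are IDR summits among the strongest 6633 regions of all 3 replicates, open points are the other IDR summits, crosses are pooled candidates outside the IDR list, and the summits of the body lie between the second start and 48.2 kb.

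The 5 annotated starts of shn differed in their distance to a summit. The first, that of shn-RE, was 14574 bp from the nearest IDR summit. The second, shared by shn-RD and shn-RF, had a summit 143 bp away with a signal of 661. The third (shn-RA) had one at 307 bp with a signal of 182, and the fifth (shn-RC) one at 182 bp with a signal of 161, so that the start with the strongest peak was the second. At the fourth (shn-RB) the nearest IDR summit was 997 bp away with a signal of 247. A pooled candidate 100 bp from that start had a signal of 123 and rank 6922, just below the IDR list, which consisted of the 6633 strongest pooled candidates. All 3 replicates had a candidate there too, at ranks 5623, 5595 and 8240 in replicates 3, 5 and 6.

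The strongest summits of shn lay away from its starts. Summit 7, at 2R 11184333 to 11184836 in intron 1 of shn-RE, had the highest signal, 1053, at rank 202 of the IDR list, and lay 1335 bp from the start of shn-RA. In the replicates its signal was 277, 312 and 455 in replicates 3, 5 and 6. Because each list has its own scale, with highest values of 948, 1432 and 2632, ranks serve better for comparing replicates, and these were 140, 215 and 279 (mean 211 ± 70, SD, n = 3). Its summit moved by no more than 12 bp between replicates. Summit 9 (2R 11188558 to 11188999), also in intron 1 and 5567 bp from any start, was its near equal, with a pooled signal of 1034. It had ranks 212, 217 and 240 in replicates 3, 5 and 6 (mean 223 ± 15), and its position also varied by 12 bp. The ranks of summits 7 and 9 overlapped, so the replicates did not order them.

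Next in strength was summit 10 in intron 2, with a signal of 771 and ranks 530, 448 and 544 in replicates 3, 5 and 6 (mean 507 ± 52, SD, n = 3). It shared its interval, 2R 11194503 to 11195289, with summit 11, only 220 bp away, whose signal was 384 and whose ranks averaged 1381 ± 166. Summit 1, at the second start (2R 11173364 to 11173880), was less even. Its ranks were 323, 202 and 2313 in replicates 3, 5 and 6, on signals of 206, 320 and 136, so that replicate 6 placed it far below the other two. Summit 16, with a signal of 510, had ranks 917, 505 and 2041 (mean 1154 ± 795), again lowest in replicate 6. Summit 5, with a signal of 417, had the opposite pattern, with ranks 2949, 1394 and 1023 (mean 1789 ± 1022).

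The weaker summits of shn included those with the least even replicates. Summit 6, 307 bp from the start of shn-RA, ranked 2344 and 4981 in replicates 3 and 6 but 14614 in replicate 5. Summit 8 (signal 231) ranked 11084 in replicate 3, against 1428 and 4884 in replicates 5 and 6. Summits 13 and 14, 199 bp apart in one interval, each lacked a matching candidate in a replicate, summit 13 in replicate 5 and summit 14 in replicate 6. A match here is the strongest candidate within 150 bp for which that summit was the nearest of the IDR list.

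Downstream of shn, summits 19 and 20 lay 202 bp apart in no annotated gene. They were 309 and 107 bp upstream of the nearest start of CG7737, and over 15 kb past the last summit in shn, with a gap of 15312 bp. Summit 20 (signal 350) was found in every replicate at ranks 2726, 1621 and 1770 (mean 2039 ± 600, SD, n = 3). Summit 19, although higher in the pooled list at 378, matched a candidate only in replicate 3, at rank 691. By distance to a start, CG7737 was therefore the nearest gene of this pair.

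In total, 13 of the 20 summits of shn (65.0%) were among the 6633 strongest regions of each of the 3 replicates, 6 were among those of 2 replicates and 1 of a single replicate. Of all IDR summits, 3681 (55.5%) met this. Replicate positions differed by a median of 34.0 bp at shn and by at most 166 bp. With matches narrowed to 50 bp, 8 of the 20 were among the strongest regions in every replicate. Gaps between neighbouring summits of shn had a median of 1938 bp, and 6 of 19 (31.6%) were under 1 kb. Over the genome 15.9% of gaps were under 1 kb, and the median was 5454 bp. The shn window held 2.03 summits per 10 kb, against 0.495 over all 6 arms, and short gaps follow from that density.

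Below the IDR list, shn had 24 further pooled candidates, with signals from 24.9 to 125. Of these, 3 carried the highest −log10 q-value in the list, 4.27, a value shared by 9327 pooled candidates: one with signal 125 at 17346 bp from the first start, the one of 123 near the start of shn-RB, and one of 106 at 43797 bp. The whole window held 44 pooled candidates, and 45, 48 and 44 in replicates 3, 5 and 6, of which 37, 38, 40 and 37 lay in the gene body. All lists thus placed most of their candidates inside the gene.

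The summits around brk lay outside it. None of its 17 IDR summits fell in the gene, which has 1 transcript, while 15 lay upstream and 2 downstream. The body held no pooled candidate either, and only 1 candidate among the 3 replicates, at rank 18330 of replicate 6. Signals ran from 132 to 984 with a median of 283, above the list's median of 222 in 11 of 17, and 3 were in the strongest 10%. The 15 upstream summits gave 7.50 per 10 kb over the 20 kb before the start, against 1.00 per 10 kb over the 20 kb behind the gene.

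All 17 summits also lay in introns of other genes. The minus-strand genes CG1677 and lncRNA:CR44357 span the whole window of brk, so that each of them hosts every summit, and no annotation tells which of these genes a summit belongs to. Summit 1 lay in addition in an exon of unc-119, 208 bp from its start. Summit 16 lay in an intron of Atg5, a gene of autophagosome formation, and summit 17 in an intron of Dok, which encodes an adaptor of tyrosine kinase signalling.

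**Figure D2:**
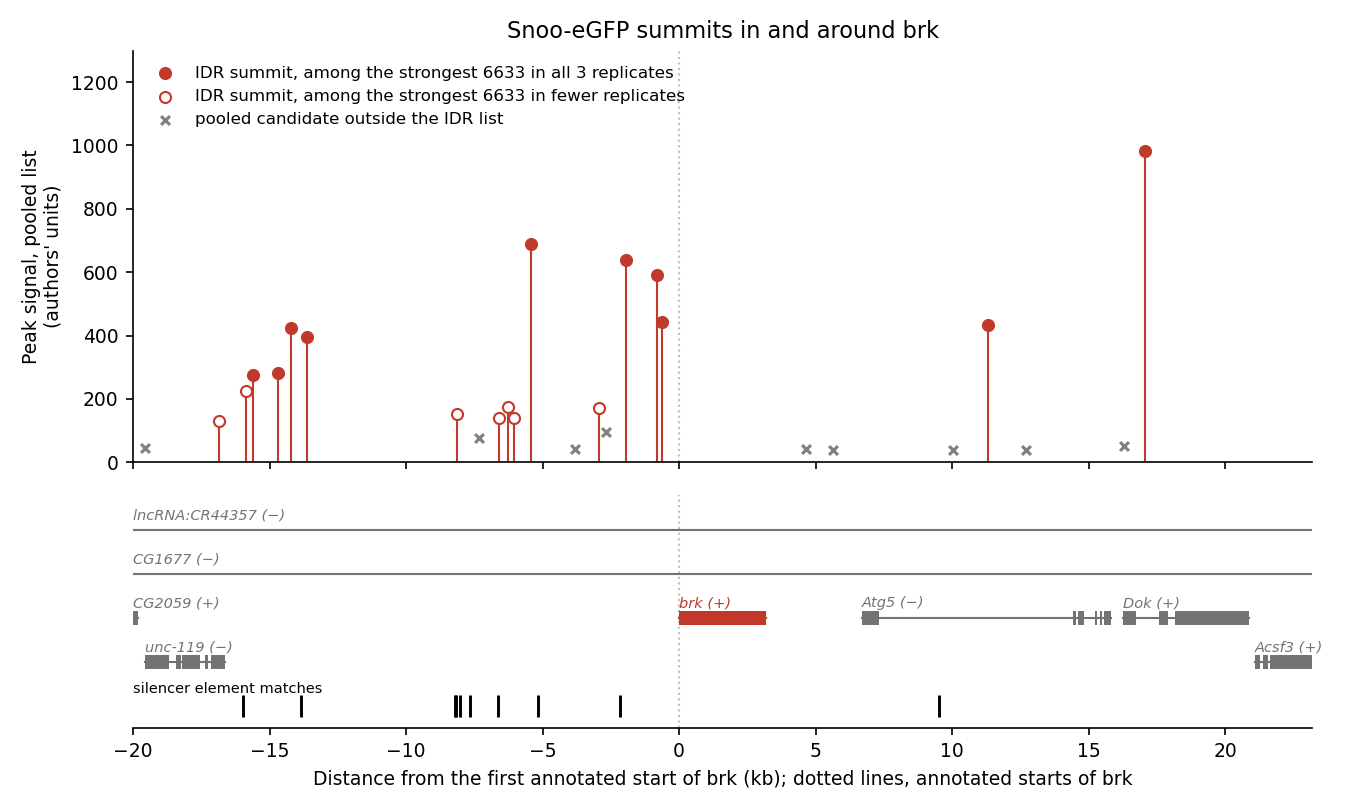
Peak signal in the pooled list (authors' units) against distance from the start of brk in kb, with gene models (boxes are exons) and silencer element matches below. Symbols are filled for IDR summits among the strongest 6633 regions of all 3 replicates, open for other IDR summits and crosses for pooled candidates outside the IDR list; 15 IDR summits lie left of the start in 2 clusters, and the gene itself holds none.

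Upstream of brk the summits fell into 2 clusters. The far one had 6 summits within 3.54 kb, and the near one had 9 within 7.81 kb, with the edges of both set from the summits themselves. The 5.19 kb between them held no IDR summit and no pooled candidate. In the replicates this gap held 2, 2 and 1 candidates in replicates 3, 5 and 6, the best of them at rank 3946 in replicate 6. That candidate, at 8295 bp upstream of brk, sat at the edge of the near cluster. The gaps between neighbouring summits of brk had a median of 944 bp, and 10 of 16 (62.5%) were under 1 kb, against 15.9% over the genome. They come from the same summits, and the brk window held 3.94 summits per 10 kb, against 0.495 over all 6 arms. Short gaps follow from that density and are no separate sign of clustering.

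The strongest summits of the near cluster stood higher in the lists of replicates 5 and 6 than in that of replicate 3. Summit 11, at X 7302344 to 7302711 and 5416 bp upstream of the start, had a pooled signal of 690. Its signals were 107, 224 and 354 in replicates 3, 5 and 6, at ranks 1310, 501 and 494 (mean 768 ± 469, SD, n = 3). Summit 13, at X 7305655 to 7306215 and 1959 bp upstream, had a pooled signal of 639 and ranks 1179, 610 and 581 (mean 790 ± 337). Its position differed by only 3 bp between replicates. The ranks of summits 11 and 13 overlapped.

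Nearest to the brk start were summits 14 and 15, at 815 and 609 bp upstream in a shared interval of 1324 bp (X 7306581 to 7307904). Their pooled signals were 591 and 443. Summit 14 ranked 3313, 821 and 467 in replicates 3, 5 and 6 (mean 1534 ± 1551, SD, n = 3) and summit 15 ranked 4582, 2727 and 953 (mean 2754 ± 1815), so that replicate 3 was lowest at both. Replicate 5 had a further candidate only 125 bp upstream of the start, at rank 2237, and replicate 3 one 110 bp upstream at rank 12906, and neither matched an IDR summit.

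The other 5 summits of the near cluster were weak, with signals from 140 to 175. Summit 7, 8122 bp upstream, had signal 153 and ranks 6450, 5920 and 8348 in replicates 3, 5 and 6. Summit 8, 6602 bp upstream, had signal 140 and was among the strongest regions of no replicate, with ranks 10394 and 15569 in replicates 3 and 5 and no match in replicate 6. Summit 9 (signal 175) matched a candidate only in replicate 6, and summits 10 and 12 were among the strongest regions of 1 replicate each. Each of the 5 thus ranked below 6633, or had no match, in at least 1 replicate.

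The far cluster of brk was of middling strength. Its strongest were summit 5 (signal 425; ranks 1100, 1749 and 1099 in replicates 3, 5 and 6, mean 1316 ± 375, SD, n = 3) and summit 6 (signal 397; ranks 2744, 1198 and 1448, mean 1797 ± 830). Summit 4, with signal 283, ranked on average 2197 ± 551. Summit 1 in unc-119, the weakest of brk at 132, was among the strongest regions of replicate 5 alone, and summit 2, 774 bp from the unc-119 start, had no match in replicate 5. Summits 3 to 6 were each among the strongest regions in all 3 replicates. For every summit of this cluster the nearest protein-coding start was that of unc-119, from 208 bp at summit 1 to 3027 bp at summit 6. Summit 6, the closest of them to brk, lay 13614 bp upstream of the brk start.

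Downstream, summit 17 (X 7324753 to 7325254) was the strongest of the brk window and had the smallest SD of rank. Its pooled signal was 984, and its signals were 240, 305 and 442 in replicates 3, 5 and 6. The ranks were 215, 232 and 302 (mean 250 ± 46, SD, n = 3). It lay 17083 bp past the brk start but only 808 bp past the start of Dok. Summit 16 in Atg5, 11318 bp past the start of brk, had a signal of 434 and ranks averaging 1420 ± 313. The highest signal in the window was thus nearest to the start of another gene.

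Over all brk summits, 10 of 17 (58.8%) were among the strongest regions in all 3 replicates, 2 in 2, 4 in 1 and 1 in none, against 55.5% in all 3 for the whole IDR list. Positions differed between replicates by a median of 39.5 bp and at most 83 bp. The window held 26 pooled candidates, and 32, 35 and 31 in replicates 3, 5 and 6. The 9 pooled candidates outside the IDR list had signals from 38.5 to 95.8, the strongest at 2672 bp upstream with the highest −log10 q-value of the list.

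**Figure D3:**
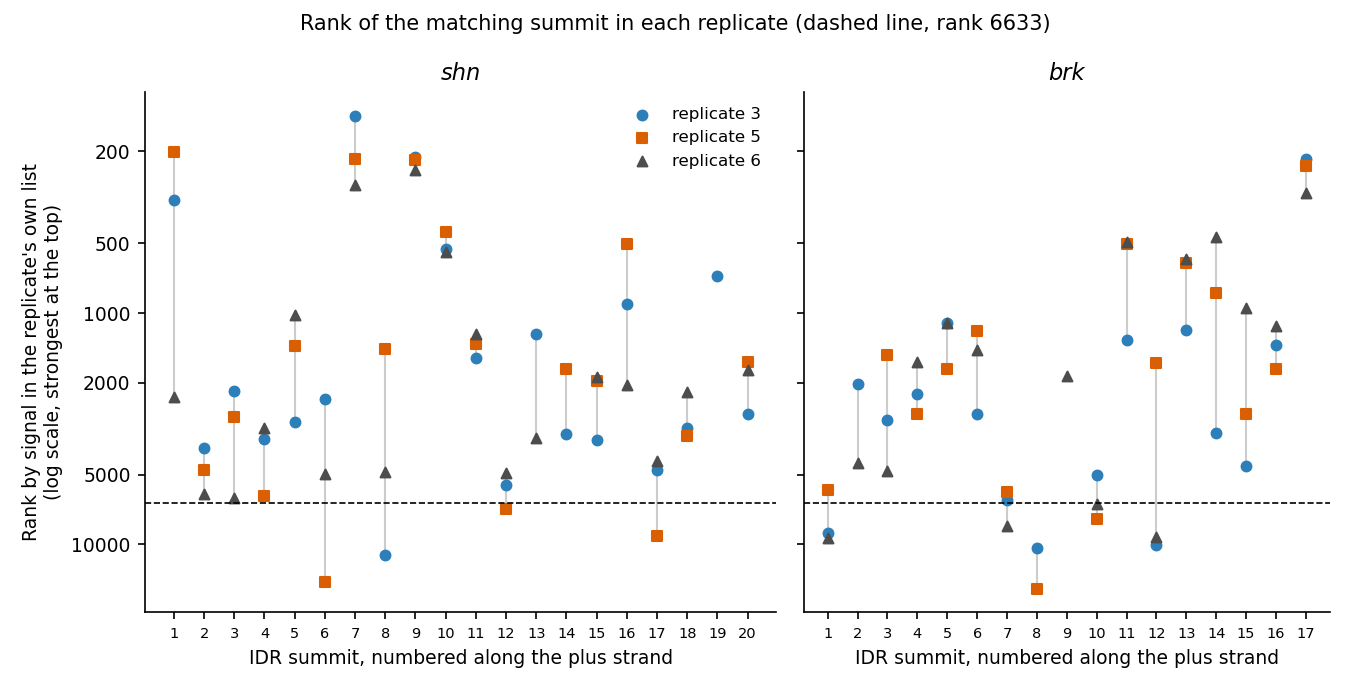
Rank by signal (log scale, strongest at the top) of the candidate that matches each IDR summit of shn and brk in replicates 3, 5 and 6, with a grey line from the lowest to the highest. The dashed line is rank 6633, the length of the IDR list; summits 7, 9 and 10 of shn and summit 17 of brk are the high ones with all 3 replicates close together.

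Both genes ranked near the top of all 13945 protein-coding genes on the 6 arms for the number of summits. An IDR summit in the body or within 20 kb was common, present for 11043 genes (79.2%), so that presence alone did not set shn and brk apart. The median gene had 2 and the highest 30. At least as many as the 20 of shn were found at 16 genes (0.115%), and at least as many as the 17 of brk at 38 genes (0.272%), shn and brk included. For summits in the body alone, 7 genes (0.0502%) had at least the 18 of shn. Neighbouring genes share summits, and longer genes have more room. Because both genes were chosen with earlier results of these data known, their places in this ranking are a description only.

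Stretches of equal length, laid end to end along the arms, take out the length of the gene. Their edges can cut a group of summits, whereas the windows of shn and brk were placed around the genes. Of 1359 stretches as long as the shn window, 11 (0.809%) held at least 20 summits, with a median of 4 and a maximum of 35. Of 3097 stretches as long as the brk window, 7 (0.226%) held at least 17, with a median of 1.00 and a maximum of 22. When each replicate was left out and summits shared by the other 2 were counted, brk had 11 summits every time. The same count for shn was 14, 18 and 13 without replicates 3, 5 and 6. The share of genes with at least as many as shn was then 0.0287 to 0.186%, and with at least as many as brk 0.337 to 0.466%.

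**Figure D4:**
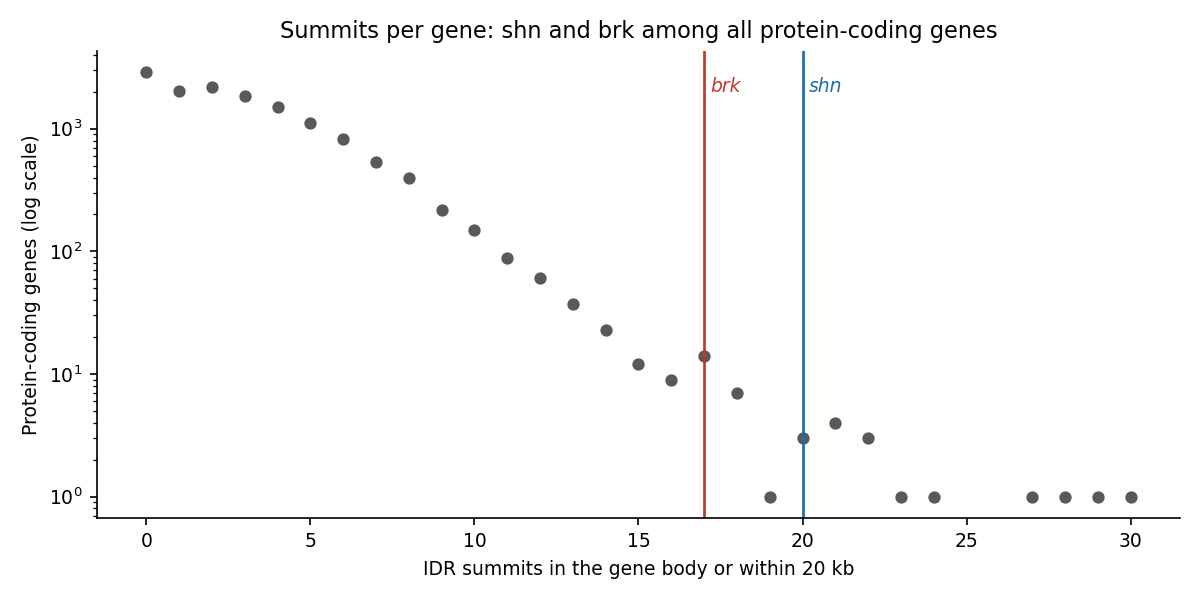
Number of protein-coding genes (log scale) against the number of IDR summits in the gene body or within 20 kb. Vertical lines mark shn at 20 and brk at 17, in the thin right end of the distribution, whose highest gene has 30.

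The genes most like shn in summit number, highest signal and length were psq, Eip74EF and CG12535. This likeness is the distance over 4 log2 values (summits within 20 kb, summits within 1 kb, highest signal, gene length), and it was 0.559, 0.572 and 0.664 among 13929 genes compared. The gene psq, which encodes a BTB domain transcription factor, had 16 summits within 20 kb, a highest signal of 944 and a length of 59.4 kb. The ecdysone-induced ETS factor gene Eip74EF also had 16, with 922 and 60.7 kb, and CG12535 had 17, with 857 and 61.0 kb. Nearest to brk was emc, which encodes an inhibitor of helix-loop-helix proteins, at a distance of 0.365, with 17 summits within 20 kb, a highest signal of 934 and a length of 4.09 kb. Tmf and CG42306 followed at 0.680 and 0.718, with 13 and 10 summits.

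Silencer element matches were dense upstream of brk. Its 43.2 kb window held 10 of the 372 matches on the 6 arms, 9 of them upstream of the start. No other stretch of that length, wherever placed, held more than 7. Of stretches of that length laid end to end, 10.4% held any. Only brk and its host CG1677 had as many as 10 in the body or within 20 kb. This order held only for the full sequence. With the last G of GTCTG left free, the brk window again held 10 of 913 matches, another stretch of its length held 15, and 7 genes had as many as 10. Because sequences of this form were already known upstream of brk, its high count is no independent finding. The shn window held 1 match, 671 bp from the nearest IDR summit and 93 bp from a pooled candidate of signal 39.7, and 21.6% of stretches of its length held at least 1.

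These elements lay close to Snoo-eGFP summits at brk. The median distance from a match to the nearest IDR summit was 166 bp in the brk window (30 to 1791 bp), against 8113 bp over all 372. Within 150 bp of a summit lay 5 of the 10, against 10 of the 362 elsewhere (2.76%). Within 250 bp, a distance chosen after the values were seen, lay 8 of the 10, against 13 of 362 (3.59%). Summits are dense upstream of brk, where 21.5% of the 20 kb lies within 150 bp of one and 32.5% within 250 bp.

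By element, matches 3, 4 and 5 lay 89, 57 and 94 bp from summit 7. Match 7 lay 30 bp from summit 8, and match 1 lay 121 bp from summit 2. These 3 summits had signals of 153, 140 and 225, below the brk median of 283, and none of them was among the 6633 strongest regions in every replicate. Summits 11 and 13, the strongest upstream of brk, had matches 8 and 9 at 236 and 211 bp, and summit 6 had match 2 at 224 bp, all outside the 201-base windows. Matches 1, 5, 7 and 9 fell inside the deposited interval of a peak. Match 6 was 464 bp from the nearest IDR summit, and match 10, in Atg5, 1791 bp.

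The count near summits fell when a replicate was left out. Among summits shared by 2 replicates, 0, 1 and 2 elements lay within 150 bp without replicates 3, 5 and 6, against 5 with the whole IDR list. Within 250 bp the counts were 1, 3 and 5, against 8. The lists of shared summits were also shorter, with 4683, 4347 and 4455 summits over the genome, against 6633. The candidate of replicate 6 at 8295 bp upstream lay within 150 bp of matches 3 and 4 but farther than that from summit 7, so it did not count as its match.

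Short sequences known from this pathway and from open chromatin were counted in the windows around the summits of both genes. Silencer elements were in 2 of 17 windows of brk and 0 of 20 of shn, against 6 of all 6633 (0.0905%), the 2 of brk included. The GCCGNC sequence was in 3 of 17 at brk (17.6%) and 3 of 20 at shn (15.0%), against 14.6% of all windows. GTCTG was in 3 at brk (17.6%) and 6 at shn (30.0%), against 20.5%. The core of Brinker's own site, GGCGCC, was in none of either gene, against 2.70% of all windows. Over the whole deposited intervals it was in 3 of 17 at brk (17.6%) and 0 of 20 at shn, against 4.36%. In counts over whole intervals, a match in a shared interval counts for each of its summits, and longer intervals have more room. In the interval of summit 2 of brk, GGCGCC is also the Mad part of silencer element 1, so the counts of these sequences overlap. The GAGA factor sequence GAGAGAG was in 2 at shn (10%) and none at brk, against 5.85%. Over whole intervals it was in 3 at shn (15.0%) and 4 at brk (23.5%), against 11.7%, so that at brk these matches lay away from the summits. TATCGATA (Dref) and CAGGTAG (Zelda) were in none of the 37, against 2.25% and 0.874%, and each was searched on both strands. The GC content of the windows had a median of 36.8% at shn (24.9 to 59.2%) and 37.3% at brk (27.9 to 58.2%), against 35.8% at all IDR summits.

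Other genes of the pathway were compared with shn and brk by their number of summits. Of 46 further genes, 28 (60.9%) had an IDR summit in the body or within 1 kb, against 31.5% of all protein-coding genes. These shares are not matched for gene length, and long genes such as Snoo (93.0 kb) and ush (64.3 kb) have more room. The list was also chosen with earlier results of these data known, so the difference is a description only. Within 20 kb their median was 3.00 summits. Only Snoo itself, with 22, and the Dpp target ush, with 21, had as many as shn or brk, which is 2 of the 46. Of all 13945 protein-coding genes, 38 (0.272%) had at least the 17 of brk, shn and brk included. These shares are not matched for gene length either.

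By role, 3 of 7 ligand genes were bound, namely dpp (signal 629), the activin-branch ligand genes daw (218) and myo (215). Of the receptor genes 3 of 5 were bound, with tkv, the type I receptor of Dpp, at 854 and 10 summits within 20 kb, and the type II receptor genes wit at 663 and put at 359. Of the Smad genes 3 of 4 were bound, with Med at 1282, the inhibitory Smad gene Dad at 801 and Mad at 175. The value of Med was above the highest of shn (1053) and brk (984), on 2 summits within 20 kb. That peak, at 3R 31616001 to 31616376, lay outside the body of Med (3R 31611046 to 31615375). It was counted through the flank of 1 kb, and other genes near it were not examined. The same holds for the highest peak of daw, which lay outside the body of that gene.

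Of the nuclear coregulator genes 4 of 5 were bound, namely Snoo (942), the corepressor gene gro (863), the acetyltransferase gene nej (695) and CtBP (212), while fuss, the other fly Ski and Sno gene, had no summit within 20 kb. Of the extracellular modulators 6 of 10 were bound, led by magu (824), the glypican gene dlp (649), nord (386) and the antagonist gene sog (353). Of the Dpp targets 10 of 16 were bound, led by ush, which encodes a cofactor of GATA factors (3439, rank 4 of the IDR list), tin (834), Dad (801) and Doc1 (419). The highest peaks of nej, nord, tin and Doc1 lay outside the gene bodies and were counted through the flank of 1 kb. Other genes near those peaks were not examined. The genes salm and bi, known targets of repression by Brinker, had 0 and 6 summits within 20 kb.

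**Figure D5:**
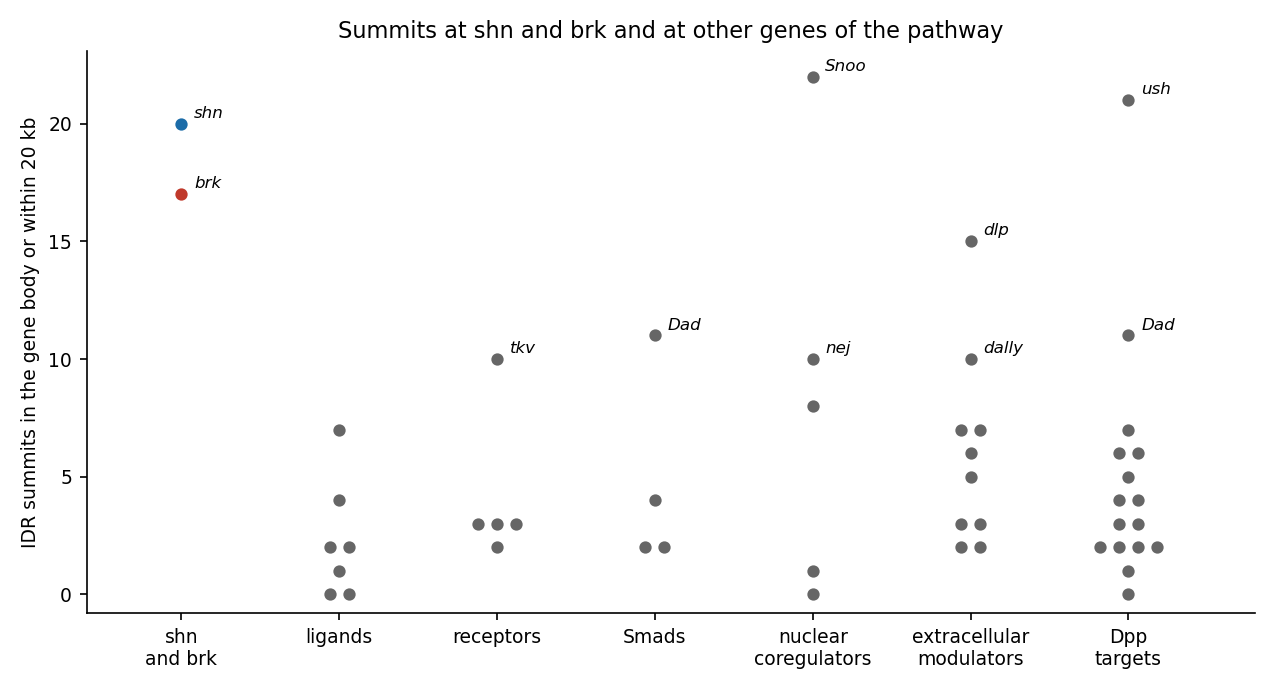
IDR summits in the gene body or within 20 kb of shn and brk and of 46 other genes of TGF-beta and BMP signalling, grouped by role, with 1 point per gene (Dad appears in 2 roles). Names are given from 10 summits upward; Snoo (22) and ush (21) are the only other genes that reach brk (17) or shn (20).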

How the data were processed

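ChIP-seq with an anti-GFP antibody was made on sonicated chromatin of pupae carrying a Snoo-eGFP fusion, in 3 biological replicates per the labels. The deposited narrowPeak lists give for each region a signal, a −log10 of the q-value and a summit, which the authors' peak caller computed relative to a control, as the listings deposited with the files say. That control was not analysed here. Lists on dm6 were used, with 30000 candidates for each replicate and for the pooled replicates, and with the IDR list of 6633, which equalled the strongest 6633 pooled candidates. The sources used here do not give the aligner, the peak caller or the IDR threshold. Read depth is unknown, so no interval that needs it is given. A signal was read only within 1 list.

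Genes came from the Ensembl BDGP6 annotation and sequence from the RefSeq Release 6 genome. No peak ran past the end of an arm, 6 candidates off the arms were left out, and 2L, 2R, 3L, 3R, 4 and X were used, with 13945 protein-coding genes. An IDR summit was matched in a replicate to the strongest candidate within 150 bp for which it was the nearest IDR summit, and the strongest regions of a replicate were its first 6633. Motifs were counted within 100 bp of a summit on both strands. Because there was 1 group and no control, values were described and no test was made. The replicates share a strain and were not compared as conditions.

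Named genes were shn, brk, genes hosting a summit or starting within 1 kb of one, up to 4 members of each pathway role by signal, and the 3 nearest genes by the 4 log2 values; fuss, salm and bi were named after their values were seen. Members and lists were chosen with earlier results of these data known. Python 3.11.15 with numpy 2.4.6 was used, figures were made with matplotlib 3.10.9, and the counting steps were tested on simulated data. Alternatives were other windows, the strongest 3317 IDR peaks, 6220 groups of overlapping intervals, each replicate left out, other match distances and other motif windows.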

Additional observations from a re-analysis of the deposited data

How the results depend on the processing

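Of 77 alternative values, 52 stayed within 1.5 times the reported count. The count at brk depended on the window, with 0 summits in the body, 4 within 5 kb and 10 within 10 kb, and fell to 11 among the strongest 3317 IDR peaks and to 11 with each replicate left out in turn. Over the genome, the summits shared without a replicate numbered 4347 to 4683, against 6633 in the IDR list. At shn the count without a replicate was 13 to 18, 29 pooled candidates remained at shn when the weaker 50% of that list was left out, and 8 summits were found in every replicate with matches within 50 bp. Among the strongest 3317 peaks, 19.8% of genes had a summit in the body or within 1 kb and 0.0574% had as many as shn within 20 kb. Without a replicate, 0.0287 to 0.186% of genes had as many as shn and 0.337 to 0.466% as many as brk. Silencer elements were in 1 brk window with 50 bp on each side and in 4 with whole intervals. Of the elements in the brk window, 8 lay within 250 bp, 0 to 2 within 150 bp without a replicate, and 1 to 5 within 250 bp without a replicate, all added after seeing the data. The cause of these shifts was not tested. No paired analysis was possible because there is 1 group. Depth is unknown and limits what the weak candidates can show.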

Other observations

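Replicate candidates that ranked among the strongest 6633 of their own list but matched no IDR summit were few at both genes. At shn they numbered 3, 2 and 4 in replicates 3, 5 and 6, the highest at rank 3250 in replicate 5, 43674 bp from the first start. At brk they numbered 0, 4 and 2, the highest being the replicate 5 candidate 125 bp upstream of the start at rank 2237. Near the start of shn-RB, at 39190 bp from the first start, replicates 3, 5 and 6 had candidates at 39089, 39242 and 39090 bp.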
